A study of Mus musculus with 9 samples.

Results

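The 10 genes described here move calcium across the sarcoplasmic reticulum and couple excitation to contraction, and they were followed in cardiomyocytes (heart muscle cells) of the mouse. They are Cacna1c, Ryr2, Casq2, Trdn, Hrc, Jph2, Atp2a2, Pln, Sln and Slc8a1. They were taken by symbol from a table of 55487 gene rows, where all 10 of the 10 listed genes were found once each and all 10 passed the low-count filter that left 15633 genes. They lie on 9 chromosomes, and the 2 on the same one, Pln and Trdn, are far apart on chromosome 10.

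In each heartbeat the action potential opens the L-type calcium channel of the surface membrane, and the small inflow of calcium opens ryanodine receptors that release the much larger store of the sarcoplasmic reticulum. Junctophilin holds both membranes close together, while calsequestrin, triadin and the histidine-rich calcium-binding protein sit at the inner face of the release site. The muscle relaxes when the calcium pump of the reticulum returns the ion to the store, under the restraint of phospholamban and sarcolipin, and when the sodium-calcium exchanger carries the rest out of the cell.

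RNA-seq counts came from 9 libraries in 3 groups of 3. The Firre group received an AAV9 vector carrying the long noncoding RNA Firre, the negative control received the AAV9 control vector (VC in the labels), and the blank control (NC) is described only as blank. AAV9 is an adeno-associated virus capsid that enters heart muscle cells well. Per the labels, every group consisted of isolated cardiomyocytes. The mouse strain, the age of the animals or cells, the promoter and dose of the vectors, the time between vector and harvest and any pooling of animals are not stated. Libraries held 15591542 to 22697016 counts assigned to genes. Firre was 62.6 to 69.7 CPM (gene counts scaled to a common library size with TMM factors) in the Firre libraries and 30.2 to 37.2 CPM in the 6 controls, and the groups did not overlap.

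All 10 genes rose in the Firre group against the negative control, where 27.5% of all genes tested were called higher, and all 10 were above every negative control library, as were 30.8% of all genes. The median log2 fold change of the 10 was 0.73 against 0.00 for all genes, with a range from 0.37 for Cacna1c to 1.26 for Sln. Of the 10, 2 rose at least 2-fold, Sln and Atp2a2, as did 4.89% of all genes. Against the blank control all 10 rose as well (27.3% of all genes were called higher), without overlap (29.5% of all genes), with a median of 0.73 and values from 0.38 for Pln to 1.34 for Sln. Both comparisons share the Firre libraries. Counts of single genes ran from 1054 to 156988 in a library.

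Markers of cell types moved in the same libraries. All 10 cardiomyocyte markers rose against the negative control, with a summed level of 36353 to 39549 CPM in the negative control, 37315 to 39399 in the blank control and 57816 to 60957 CPM in the Firre group. All 10 fibroblast markers fell, from 9945 to 10138 CPM in the negative control (9935 to 10378 in the blank control) down to 4573 to 5115 CPM. All 10 endothelial markers (1474 to 1488 against 631 to 659 CPM), all 9 of smooth muscle and pericytes (2851 to 3252 against 1422 to 1569.6 CPM) and all 7 epicardial markers (289.5 to 307 against 101 to 106 CPM) fell. All 10 macrophage markers fell from 69.3 to 75.1 CPM to 11.8 to 13.0 CPM, with C1qa at 0 counts in the Firre group. The cells labelled cardiomyocytes therefore carried markers of other cardiac cell types in all groups, and in bulk RNA fewer cells of a type cannot be told apart from less RNA per cell. The part of these markers in the rise of the 10 genes was not tested. The share of counts from mitochondrially encoded genes moved with the group too, at 7.07% to 8.07% in the Firre libraries, 5.89% to 6.62% in the negative control and 6.23% to 6.8% in the blank control. Skeletal muscle markers summed to 8.66 to 12.3 CPM in all groups, with Myod1 and Myh4 at 0 counts in the Firre group and the blank control. Of the 5 that passed the low-count filter, 2 were called higher against the negative control, 1 lower and 2 were not called.

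**Figure D1:**
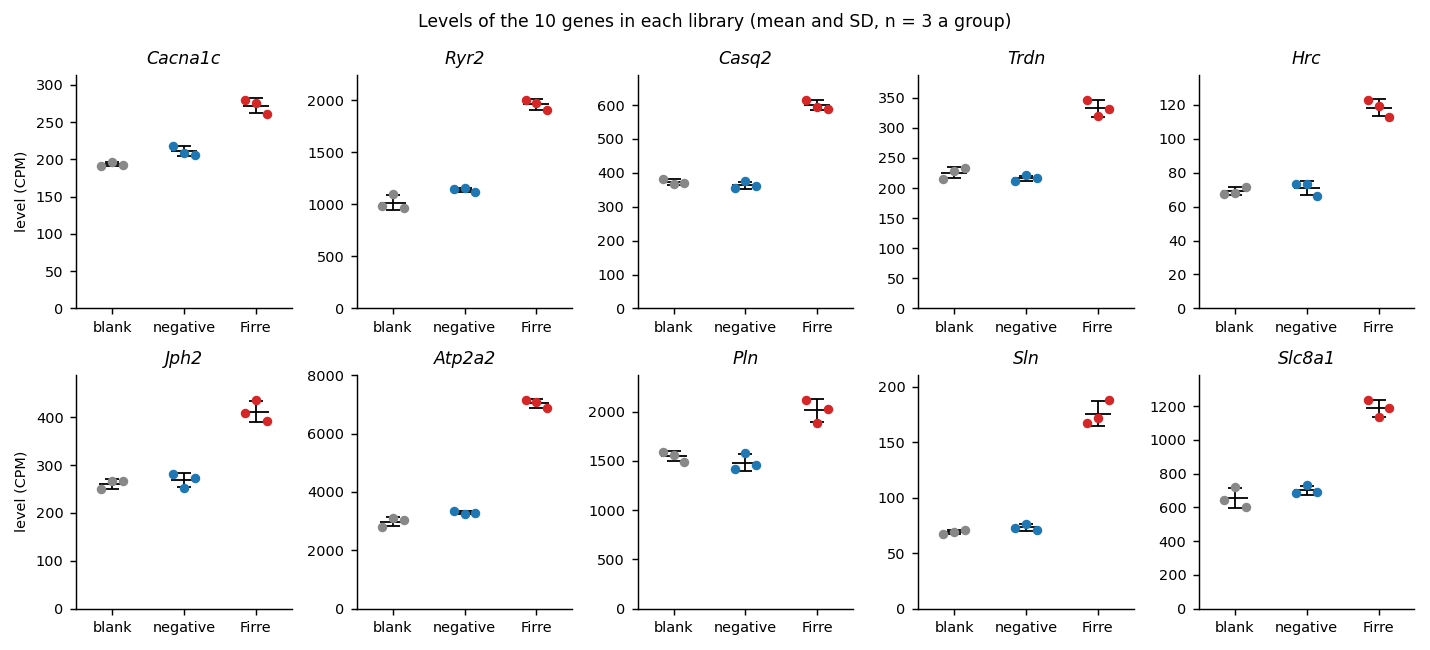
Level of each of the 10 genes in CPM (vertical axes, each starting at 0) in the 3 libraries of the blank control, the negative control and the Firre group, with black bars for the mean and SD (n = 3). In each panel the 3 Firre libraries lie above all 6 controls. Against the negative control the fold was smallest for Cacna1c (272 against 211 CPM) and largest for Sln (176 against 73.4 CPM).

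Together the 10 genes took 0.722%, 0.781% and 0.737% of the gene counts of the blank controls, 0.789%, 0.807% and 0.781% in the negative control and 1.41%, 1.37% and 1.35% in the Firre group. The group means were 0.747% ± 0.0305, 0.793% ± 0.0130 and 1.38% ± 0.0299 (SD, n = 3). The Firre libraries were higher than every control library. The difference of 0.583 percentage points from the negative control had p = 0.10 in an exact two-sided permutation test, the smallest that 3 against 3 libraries can give. With mitochondrially encoded genes left out of the total it was 0.645 percentage points, at the same p. The negative control was 0.0460 percentage points above the blank control, also at a permutation p of 0.10. That p was 0.20 with mitochondrially encoded genes left out. Atp2a2 alone held 42.1% of the counts of the 10 with the control vector and 49.9% with Firre, while the share of Pln went from 19.0% to 14.3%.

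The entry point for calcium is Cacna1c, the pore subunit of the cardiac L-type channel (chromosome 6, 118587240 to 119196418 in mm10, minus strand). Its level was 191, 197 and 193 CPM in the blank control, 218, 209 and 206 CPM with the control vector and 280.1, 276 and 260.4 CPM with Firre. The groups did not overlap, and this was the smallest rise of the 10, at 0.37 on the log2 scale against the negative control (SE 0.05, adjusted p = 6.09e-08 by edgeR). Against the blank control the value was 0.49 (SE 0.05, adjusted p = 2.14e-10).

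Ryr2, the ryanodine receptor through which the store empties in heart muscle, spans chromosome 13 from 11553102 to 12106945 on the minus strand. It stood at 979.8, 1102 and 967 CPM in the blank control, 1143, 1155 and 1114 CPM with the control vector and 2005, 1969 and 1906 CPM with Firre. The lowest Firre library was well above the highest control. The log2 fold change was 0.78 (SE 0.05, adjusted p = 6.40e-15) against the negative control and 0.95 (SE 0.05, adjusted p = 7.62e-17) against the blank control.

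Proteins of the store's inner face followed. Casq2, the cardiac calsequestrin that buffers calcium inside the reticulum (chromosome 3, 102086415 to 102146514, plus strand), was at 383, 367 and 369.7 CPM in the blank control, 355, 375 and 361 CPM with the control vector and 616, 593 and 589.5 CPM with Firre. Trdn, the triadin that anchors calsequestrin to the ryanodine receptor (chromosome 10, 33080554 to 33476709, plus strand), was at 215, 229 and 233 CPM, 212, 221 and 216 CPM, and 347, 319 and 332 CPM in the same order of groups. Neither gene overlapped between the Firre libraries and the controls, and in both genes the 2 control groups overlapped each other. Hrc, the histidine-rich calcium-binding protein that interacts with triadin and the pump (chromosome 7, 45335290 to 45338974, plus strand), was at 67.6, 68.1 and 71.7 CPM, 73.4, 73.1 and 66.5 CPM, and 123, 119 and 113 CPM. Against the negative control the log2 fold changes were 0.72 for Casq2 (SE 0.04, adjusted p = 8.08e-15), 0.62 for Trdn (SE 0.05, adjusted p = 1.68e-12) and 0.74 for Hrc (SE 0.06, adjusted p = 1.32e-12). Thus Casq2 and Hrc lay close to the median of the 10 and Trdn somewhat under it.

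RefSeq promoter windows on GRCm38.p6 (mm10) were at hand for 7 of the 10 genes, in 10 windows, since some genes have several starts. The 250 bases before each start were searched on both strands for the MEF2 motif, the CArG box, TATAAA (the TATA box), CATTCC (bound by TEAD factors), AGATAA (by GATA factors) and lastly CTAAAAAT. The last of these was chosen after the sequences were read, and it overlaps the MEF2 motif in Casq2. MEF2 motifs were found in Casq2 and in no other window of the 10 genes, where 2.92% of all 32851 windows hold one. CTAAAAAT was found in Casq2 and Hrc. It was chosen from these windows, so its share of all windows (1.01%) is no test of them. The remaining motifs were found in few of the windows or in none. TATAAA was in the Pln window, at -219 to -214 from the start (12.4% of all windows hold it at any position). AGATAA was in those of Pln and Slc8a1 (9.99%), and neither the CArG box (1.47%) nor CATTCC (12.6%) in any. A match is a description of the letters only. Both windows with CTAAAAAT are shown because their genes sit at the store's inner face. Their fold changes were similar, but so were those of Slc8a1 (0.76) and Ryr2 (0.78), whose windows lack it. The windows shown cover chr3:102086165-102086414 for Casq2 and chr7:45335019-45335268 for Hrc, both plus strand, with the MEF2 and CTAAAAAT matches in capitals.
Casq2: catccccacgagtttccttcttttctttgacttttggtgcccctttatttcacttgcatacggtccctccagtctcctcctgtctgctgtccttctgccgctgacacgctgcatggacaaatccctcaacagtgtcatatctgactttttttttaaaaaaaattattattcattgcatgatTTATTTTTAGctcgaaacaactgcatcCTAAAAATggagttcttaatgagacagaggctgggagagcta
Hrc: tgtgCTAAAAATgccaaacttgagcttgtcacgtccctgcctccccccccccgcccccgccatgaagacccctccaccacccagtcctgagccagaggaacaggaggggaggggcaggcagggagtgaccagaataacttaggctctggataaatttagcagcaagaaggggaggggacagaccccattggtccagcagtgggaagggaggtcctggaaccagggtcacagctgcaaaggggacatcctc

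Jph2, the junctophilin that tethers the reticulum to the surface membrane (chromosome 2, 163336242 to 163397993, minus strand), was at 249, 266 and 266 CPM in the blank control and at 281, 253 and 274 CPM in the negative control. In the Firre group it was at 408, 436 and 391 CPM, above every control. Its log2 fold change was 0.61 (SE 0.05, adjusted p = 8.33e-12) against the negative control and 0.66 (SE 0.05, adjusted p = 1.61e-12) against the blank control.

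On the uptake side, Atp2a2, the gene of the SERCA2 calcium pump (chromosome 5, 122453513 to 122502225, minus strand), was the most abundant of the 10 in counts. It was at 2797, 3112 and 3044 CPM in the blank control, 3356, 3245 and 3281 CPM with the control vector and 7154, 7088 and 6861 CPM with Firre. The pump transcript was thus 2.14-fold higher than in the negative control, a log2 fold change of 1.09 (SE 0.05, adjusted p = 7.79e-19), and 2.36-fold higher than in the blank control.

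The pump has 2 small inhibitors among the 10 genes. Pln, the gene of phospholamban, which slows the pump until it is phosphorylated (chromosome 10, 53337667 to 53345987, plus strand), was at 1594, 1559 and 1492 CPM in the blank control, 1415, 1579 and 1457 CPM with the control vector and 2119.9, 1890.0 and 2032 CPM with Firre. Its rise was small, 0.44 (SE 0.05, adjusted p = 4.89e-09) against the negative control and 0.38 (SE 0.05, adjusted p = 8.59e-08) against the blank control. Sln, the gene of sarcolipin, the pump inhibitor of the atria (chromosome 9, 53850164 to 53854560, plus strand), was at 67.3, 69.3 and 70.8 CPM, 73.1, 76.6 and 70.5 CPM, and 167, 172 and 188 CPM. Sln had the highest fold change of the 10 in both comparisons, 1.26 (SE 0.06, adjusted p = 3.23e-18) and 1.34 (SE 0.06, adjusted p = 8.09e-19). Genes typical of atrial muscle rose in the same libraries, against the negative control by 1.73 for Myl7 (adjusted p = 1.10e-22), 1.53 for Myl4 (adjusted p = 3.47e-22) and 0.95 for Nppa (adjusted p = 2.98e-16). The ventricular light chain gene Myl2 rose as well, by 0.39 (adjusted p = 1.84e-08). So did all 22 genes of a sarcomere list, at a median of 0.78. The part of these genes in the rise of Sln was not tested. Of the 2759 exon bases of Pln, 1644 overlap exons of the opposite-strand gene Gm47644 and 141 overlap Cep85l; these neighbours had 35 to 55 and 125 to 273 counts where Pln had 24964 to 41887. Whether counting used strand is not stated, and without it reads from both strands over these bases cannot be told apart.

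Slc8a1, the sodium-calcium exchanger NCX1 that extrudes calcium across the surface membrane (chromosome 17, 81373105 to 81738377, minus strand), was at 645, 719.7 and 601 CPM in the blank control. It was at 685, 734 and 690.1 CPM with the control vector and 1237, 1135 and 1188 CPM with Firre. Here too the Firre libraries stood clear of the controls, and the control groups overlapped each other. The log2 fold change was 0.76 (SE 0.05, adjusted p = 2.19e-12) against the negative control and 0.86 (SE 0.05, adjusted p = 1.62e-13) against the blank control.

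Differences between the control groups were small. Against the blank control, edgeR called none of the 10 in the negative control, where 0.0576% of all genes were called. DESeq2 called 2, Ryr2 and Atp2a2, where it called 17 of all genes higher and 15 lower. In edgeR, 3 of the 10 and 1331 of all genes had an unadjusted p under 0.05. Those 3 were Ryr2 at 0.16 (SE 0.05, adjusted p = 0.243), Atp2a2 at 0.14 (SE 0.04, adjusted p = 0.321) and Cacna1c at 0.12 (SE 0.05, adjusted p = 0.457), and their negative control libraries were above all blank controls, as in 6.21% of all genes. With blank control replicate 2 left out Ryr2 passed, at 0.22 (adjusted p = 0.0210). The values of the other 7 genes lay between -0.06 for Pln and 0.10 for Slc8a1.

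Per kb of exon, which allows levels to be compared between genes, Atp2a2 and Pln stood far above the others in every group. In the negative control Atp2a2 was at 542 ± 9.25 and Pln at 538 ± 31.0 CPM per kb (SD, n = 3), with ranges that overlapped. In the Firre group Atp2a2 was at 1157 ± 25.3 and Pln at 730.0 ± 42.0 CPM per kb, with no overlap, while in the blank control Pln was the higher, at 561 ± 18.8 against 491 ± 27.3. Casq2 ranked next in each group, at 133 ± 3.73 CPM per kb in the negative control. Jph2 was above Sln in both controls (63.3 ± 3.47 against 55.7 ± 2.35 in the negative control), and Sln was above Jph2 in the Firre group (133 ± 8.37 against 96.8 ± 5.27). Ryr2 and Slc8a1 came next and overlapped in both controls, at 39.5 ± 0.723 and 37.4 ± 1.45 CPM per kb in the negative control. Hrc and Trdn followed, and Cacna1c was lowest in every group, at 9.95 ± 0.286 CPM per kb with the control vector and 12.8 ± 0.490 with Firre. Lengths are the merged exons of all annotated transcripts, so genes with long rare exons are placed too low.

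Ratios of one gene to another within a library do not depend on scaling. The 7 examined were formed from counts per kb. The ratio of Pln to its target Atp2a2 was 1.26, 1.10 and 1.08 in the blank control, 0.929, 1.07 and 0.979 with the control vector and 0.653, 0.588 and 0.653 with Firre. Every Firre library was lower than every control, and the means were 0.994 ± 0.0728 with the control vector and 0.631 ± 0.0377 with Firre (SD, n = 3). The log2 difference was -0.65, with p = 0.10 in the exact permutation test, or 0.140 adjusted over the 7 ratios; 3 against 3 libraries cannot go below 0.10. Set against all 6 controls the difference was -0.76, with an exact permutation p of 0.0238 (adjusted 0.0333), the smallest that 3 against 6 can give. That pooled test takes both control groups as alike, but their Pln to Atp2a2 ratios did not overlap. Its p therefore does not compare Firre with the control vector alone. Sln to Atp2a2 was 0.103 ± 0.00533 with the control vector and 0.115 ± 0.00985 with Firre; the groups overlapped, with an exact permutation p of 0.200.

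The exchanger and the L-type channel also took lower ratios. Slc8a1 to Atp2a2 was 0.0660, 0.0732 and 0.0680 with the control vector and 0.0559, 0.0518 and 0.0560 with Firre, a log2 difference of -0.34. Cacna1c to Ryr2, the channel that triggers release against the channel that carries it, was 0.259, 0.246 and 0.251 with the control vector and 0.190, 0.190 and 0.186 with Firre, a log2 difference of -0.42. In both ratios the Firre libraries were below all 6 controls, with the smallest exact permutation p values that the designs allow (0.10 against the negative control and 0.0238 against 6 controls). Among the partners of the release channel, Casq2 to Ryr2 differed by -0.06, Trdn to Ryr2 by -0.16 and Jph2 to Ryr2 by -0.17 on the log2 scale. The first pair of these ratios did not overlap with the negative control, and the groups of Jph2 to Ryr2 did. The blank control means of these ratios were above those of the negative control, a difference that was not tested, at 3.88 ± 0.330, 0.685 ± 0.0518 and 1.74 ± 0.117 against 3.37 ± 0.0817, 0.585 ± 0.0132 and 1.60 ± 0.106 (SD, n = 3).

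**Figure D2:**
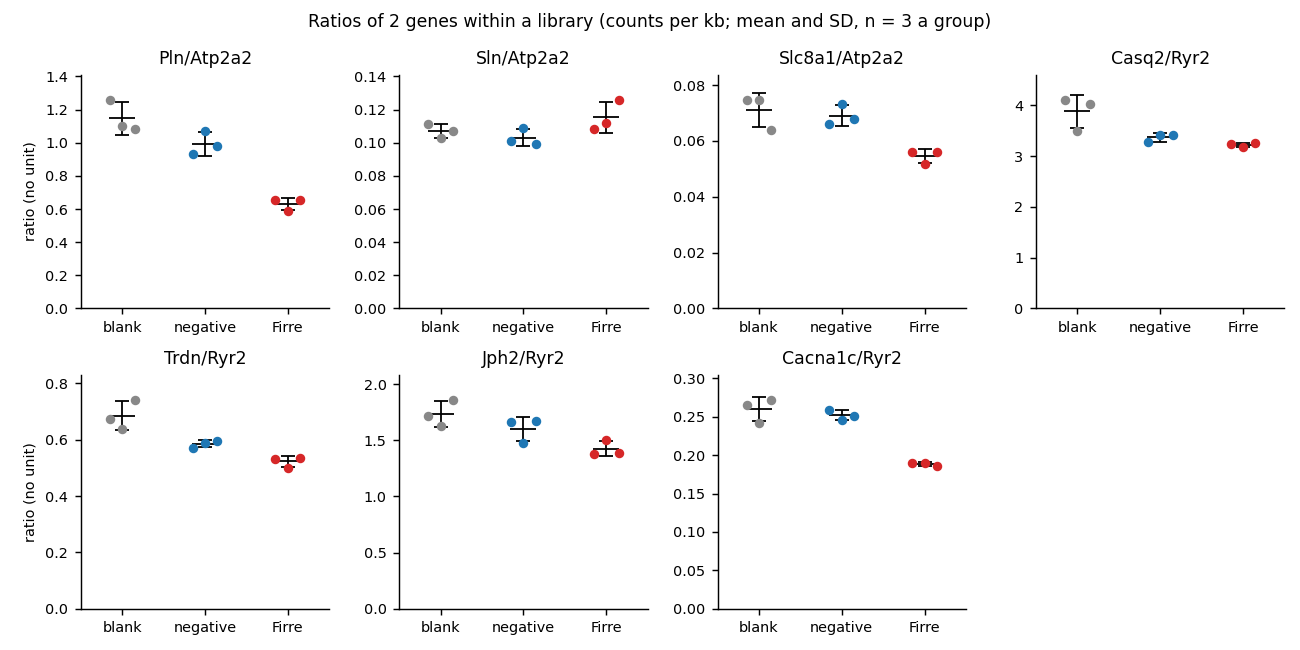
Ratio of the counts per kb of 2 genes within each library (vertical axes, no unit, starting at 0), by group, with black bars for the mean and SD (n = 3). Pln to Atp2a2 goes from 0.994 with the control vector to 0.631 with Firre and Cacna1c to Ryr2 from 0.252 to 0.189, with no overlap, whereas Sln to Atp2a2 overlaps between groups.

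Genes of the contractile apparatus were higher in the Firre libraries too: all 22 of a reference list of sarcomere genes rose against the negative control, at a median of 0.78. The 10 genes were therefore also tested with each library scaled to its summed counts over those 22, of which Myh6 gave 35.8%. On this scale a value of 0 means a change equal to that of the contractile sum, and the median of all genes was -0.60. Against the negative control 3 of the 10 genes were higher than the contractile sum (5.05% of all genes were), 2 were lower (72.1% of all genes were) and 5 were not called.

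Atp2a2, Sln and Ryr2 made up the first set. Per 1000 contractile counts, Atp2a2 was at 74.0, 77.7 and 75.5 with the control vector and 109, 104 and 106 with Firre, a log2 difference of 0.49 (SE 0.05, adjusted p = 2.79e-09). Sln was at 1.61, 1.84 and 1.62 and at 2.53, 2.52 and 2.92, a log2 difference of 0.65 (SE 0.07, adjusted p = 1.19e-08). Both genes thus rose by more than the contractile sum of the same libraries. Ryr2 differed by 0.18 (SE 0.06, adjusted p = 0.00753). The negative control differed from the blank control in Ryr2 by the same 0.18 (SE 0.06), without a call (adjusted p = 0.650). Before adjustment the edgeR p-values of these comparisons were close, at 0.00518 and 0.00608. The Ryr2 value is therefore no larger than the difference between both controls.

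Cacna1c and Pln were the 2 that fell short of the contractile sum. Cacna1c was at 4.80, 5.0 and 4.75 per 1000 contractile counts in the negative control and 4.25, 4.05 and 4.04 in the Firre group, a log2 difference of -0.24 (SE 0.05, adjusted p = 2.82e-04). Pln differed by -0.17 (SE 0.07, adjusted p = 0.0315), and its groups overlapped, at 31.2, 37.8 and 33.5 against 32.2, 27.8 and 31.5. The Pln call was lost without negative control replicate 2 (-0.09, adjusted p = 0.222) and without Firre replicate 2 (-0.10, adjusted p = 0.171). It was lost as well with Myl4 and Myl7 out of the reference (-0.14, adjusted p = 0.0686). Over all alternatives its adjusted p ran from 0.00169 to 0.222.

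The 5 genes not called lay near the contractile sum. Trdn was at 0.02 (SE 0.06, adjusted p = 0.803) and Jph2 at 0.01 (SE 0.05, adjusted p = 0.888). Casq2 was at 0.11 (SE 0.05, adjusted p = 0.0566), Hrc at 0.13 (SE 0.06, adjusted p = 0.0572) and Slc8a1 at 0.15 (SE 0.08, adjusted p = 0.0884). These last 3 were just short of the threshold, and each passed without negative control replicate 2, in the same order at 0.17 (adjusted p = 0.00996), 0.19 (adjusted p = 0.0157) and 0.21 (adjusted p = 0.0200). All 3 also passed with Myl4 and Myl7 out of the reference, at 0.14, 0.16 and 0.18 (adjusted p = 0.0225, 0.0259 and 0.0482). Without Firre replicate 2, Casq2 passed at 0.14 (adjusted p = 0.0395) and Slc8a1 at 0.20 (adjusted p = 0.0315). Slc8a1 also passed without blank control replicate 2 or 3, at 0.15 in each case (adjusted p = 0.0250 and 0.0328), as well as without the low-count filter (adjusted p = 0.00916) and with only the groups compared (adjusted p = 0.0186). In that last fit Casq2 passed too (adjusted p = 0.0492).

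Against the blank control 5 genes were higher than the contractile sum (5.33% of all genes), 1 was lower (71.7%) and 4 were not called. Sln was at 0.76 (SE 0.07), Atp2a2 at 0.65 (SE 0.05), Ryr2 at 0.36 (SE 0.06), Slc8a1 at 0.26 (SE 0.08) and Hrc at 0.19 (SE 0.06, adjusted p = 0.0101). The gene below the sum was Pln at -0.21 (SE 0.07, adjusted p = 0.00840), and Cacna1c had a value of -0.10 (SE 0.05, adjusted p = 0.0851). Without Firre replicate 1 Hrc no longer passed (0.16, adjusted p = 0.0600), and without Firre replicate 2 Pln did not (-0.15, adjusted p = 0.0522). With Myl4 and Myl7 out of the reference Casq2 passed as well (0.12, adjusted p = 0.0479). Between both control groups none of the 10 was called on this scale, and 3 had an unadjusted p under 0.05; of all genes none was called and 1005 were under that p.

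**Figure D3:**
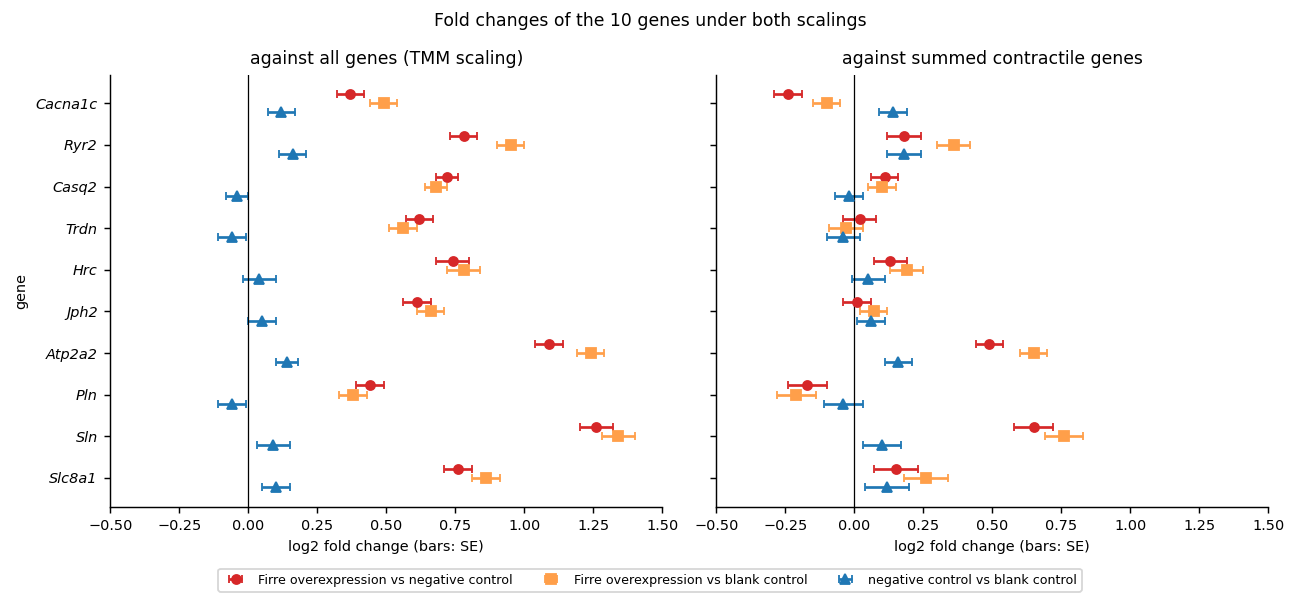
Log2 fold change with its SE (horizontal axes) for each of the 10 genes in the 3 comparisons, scaled over all genes (left) and to the summed contractile genes (right). On the left all Firre values lie right of 0, from 0.37 to 1.34, and on the right they spread around 0, with Sln and Atp2a2 at 0.49 to 0.76 and Cacna1c and Pln at -0.24 to -0.10.

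Close relatives of the 10 that serve mainly other tissues were mostly low. Ryr1, the ryanodine receptor of skeletal muscle, was at 0.258 ± 0.183 CPM in the Firre group, Cacna1s, the skeletal L-type channel, at 0.212 ± 0.141, and Slc8a3 at 0.203 ± 0.186 (SD, n = 3), all under the low-count filter. Slc8a2 was at 3.73 ± 0.434 CPM and the junctophilin gene Jph1 at 13.7 ± 1.57 CPM, neither called against the negative control (adjusted p = 0.480 and 0.0880), although Jph1 was called higher than in the blank control (0.28, adjusted p = 0.0268). Other relatives rose. Atp2a1, the skeletal pump, went from 0.309 ± 0.181 to 0.716 ± 0.225 CPM (1.18, SE 0.50, adjusted p = 0.0446), with groups that overlapped, and was also called against the blank control (1.44, adjusted p = 0.0218), without overlap. Ryr3 was at 1.18, 2.12 and 1.28 CPM with the control vector and 6.78, 6.64 and 6.63 CPM with Firre (2.12, SE 0.24, adjusted p = 8.03e-09). Casq1, the skeletal calsequestrin, went from 16.5 ± 1.27 to 41.5 ± 3.22 CPM (1.33, SE 0.09, adjusted p = 4.94e-14), which per kb was 21.3 ± 1.65 CPM with Firre, above Cacna1c at 12.8 ± 0.490, and Atp2a3 from 2.32 ± 0.393 to 4.47 ± 0.999 CPM (0.93, SE 0.20, adjusted p = 2.44e-04).

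Other calcium-handling genes, in 5 lists of 80 symbols, did not move as one. Of the 79 found, 70 passed the low-count filter; 35 were called higher and 23 lower against the negative control (27.5% and 28.4% of all genes) and 12 were not called, at a median of 0.16. Among 21 tested partners of the release unit 13 rose and 5 fell (median 0.46). Speg, a striated muscle kinase, rose by 1.07 (SE 0.06, adjusted p = 6.47e-16) and Tmem38a, the TRIC-A cation channel of the reticulum, by 0.78 (SE 0.05, adjusted p = 1.48e-14).

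Of 10 tested genes of junction and T-tubule structure 6 rose and 1 fell (median 0.27). Tcap, the telethonin of the Z-disc, rose by 0.77 (SE 0.06, adjusted p = 9.63e-13) and the membrane-trafficking gene Ehd4 by 0.49 (SE 0.04, adjusted p = 5.28e-11). Bin1, whose product bends membranes into T-tubules, fell by 0.67 (SE 0.07, adjusted p = 1.19e-09); its mean level was 48.3 ± 1.28 CPM with the control vector and 30.4 ± 2.33 CPM with Firre (SD, n = 3).

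Of 13 tested calcium channel subunits and modulators 7 rose and 4 fell (median 0.15). Cacna2d2, an auxiliary subunit, rose by 2.04 (SE 0.10, adjusted p = 2.76e-17), to 33.6 ± 1.0 CPM, and Cacna1h, a T-type pore subunit, by 1.61 (SE 0.10, adjusted p = 3.75e-14). Rrad, a small GTPase that restrains L-type channels, rose by 1.09 (SE 0.05, adjusted p = 1.19e-17); its mean level was 117 ± 4.27 CPM with the control vector and 248 ± 8.86 CPM with Firre (SD, n = 3). These 3 rose by more than the pore subunit Cacna1c at 0.37; the difference between genes was not tested.

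Of 14 tested genes of calcium removal and pump control 8 rose and 5 fell (median 0.17). Prkaca, a catalytic subunit of the kinase that phosphorylates phospholamban, rose by 0.41 (SE 0.05, adjusted p = 3.86e-08). Atp2b4, a calcium pump of the surface membrane, fell by 0.88 (SE 0.11, adjusted p = 2.74e-08). Store-operated entry and IP3 receptor genes went mostly down, with 8 of 12 lower and 1 higher (median -0.54). Itpr3, an IP3 receptor, fell by 1.01 (SE 0.06, adjusted p = 1.35e-14), the store sensor gene Stim2 by 0.96 (SE 0.07, adjusted p = 4.43e-13) and the channel gene Orai2 by 0.92 (SE 0.08, adjusted p = 4.16e-11). The marker lists of fibroblasts (10 of 10 lower) and endothelium (10 of 10 lower) moved the same way, and their part in this was not tested.

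**Figure D4:**
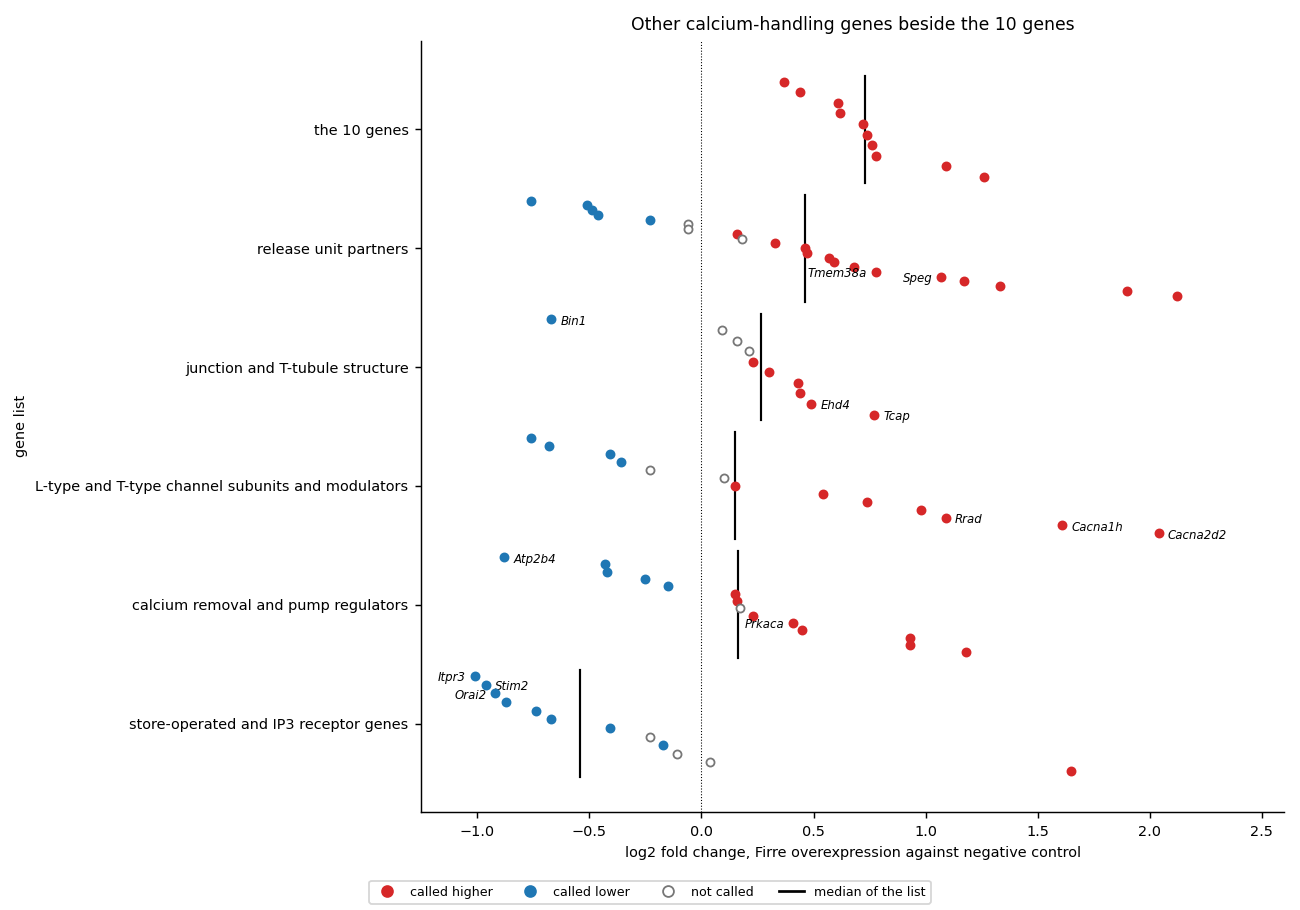
Log2 fold change of the Firre group against the negative control (horizontal axis) for each tested gene of the 10 and of the 5 other calcium-handling lists, one dot a gene, ordered by value within a list. All 10 dots of the first row lie right of 0 around a median of 0.73, while the other lists spread to both sides, with medians from 0.46 for release unit partners to -0.54 for store-operated and IP3 receptor genes.

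Over the 9 libraries, the genes with the pattern closest to the median of the 10 were sought among 9570 other genes with at least 10 CPM on average. Closeness was the root mean square distance of centred log2 CPM. The nearest were Trp53inp2 (distance 0.0280), Trim55 (0.0282), Zc3hav1 (0.0321), Mdh1 (0.0334) and Myom1 (0.0347). Trim55 encodes a ubiquitin ligase of the sarcomere, Mdh1 the cytosolic malate dehydrogenase and Myom1 the M-band protein myomesin. Of the 10 themselves, Hrc (0.0431) and Casq2 (0.0474) lay nearest to that median, and Sln (0.277) and Atp2a2 (0.215) farthest. Such closeness describes a similar size of change over the 3 groups and nothing of function.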

How the data were processed

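The deposited values are raw read counts per Ensembl gene for 9 libraries. Per the labels' protocols, they came from rRNA-depleted directional paired-end libraries, although the labels give the molecule as polyA RNA. The submitters' processing notes name STAR, featureCounts, Trimmomatic and FastQC, without versions, and mm10 as the build. The 5 closing lines that name no gene held 16.3% to 17.4% of counts and were left out. Symbols and exon lengths came from GENCODE M21 (55141 of 55487 identifiers matched).

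Groups came from the titles, which say biological replicate but not whether animals or cultures differ, so each p-value reflects how far these libraries scatter, possibly for technical reasons alone. Replicates differed beyond sampling noise (chi-square per degree of freedom 3.41 to 7.99). The test was edgeR 4.0.16's quasi-likelihood F test (R 4.3.3) with TMM factors and filterByExpr (minimum count 10, total 15), all 9 libraries in 1 fit with 6 residual degrees of freedom, and Benjamini-Hochberg adjustment over 15633 genes at 0.05. The SE was taken from the fold change and its F statistic. A second fit set library size to the summed counts of 22 contractile genes. Ratios and shares had exact two-sided permutation tests over libraries. DESeq2 1.42.0 was an alternative. The fit was tested on simulated counts with known changes. It recovered 76%, 92% and 100% of genes changed by 0.5, 1 and 2 on the log2 scale, with 16 false calls among 15103 genes. Far fewer genes were changed there than were called in the Firre comparisons, so the simulation does not cover shifts as broad as those.

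The 10 genes and the lists were chosen with earlier results of these data known. Besides the 10, the genes named by rule are the 3 with the smallest p of each calcium-handling list, relatives of other tissues, markers without counts in a group and the 5 nearest patterns. Firre and the genes overlapping Pln were named as checks. The contractile genes and other markers named, among them Myl2, Myl4, Myl7 and Nppa, lie outside this rule. Some genes under this rule are not reported here. One symbol, Strit1, had no match.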

Additional observations from a re-analysis of the deposited data

How the results depend on the processing

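The rise of all 10 genes in the Firre group held, against either control, with DESeq2 size factors, library totals alone, DESeq2's own test, no low-count filter, only the groups compared, the replicate block and each library left out; Atp2a2 ranged from 1.04 to 1.11 and Cacna1c from 0.31 to 0.40 against the negative control. The replicate numbers do not pair the samples (correlations of deviations of -0.0609 to 0.0424 for equal numbers), and with the replicate block 10 of the 10 genes were still called. Of the calls of the 10 genes on either scale, the block changed that of Pln relative to contractile genes (-0.16, adjusted p = 0.0536). Between the control groups 9 genes were called in all, 32 with DESeq2, 98 without the filter and 0 to 55 with a library left out. Of the 10 genes there, DESeq2 called 2 and the unfiltered fit 1, and 0 to 1 were called with a library left out; of the listed calcium-handling genes 0 to 1 were. The causes were not tested. With all 6 controls the log2 differences of the ratios were -0.76 for Pln to Atp2a2, -0.36 for Slc8a1 to Atp2a2, -0.16 for Casq2 to Ryr2, -0.28 for Trdn to Ryr2, -0.23 for Jph2 to Ryr2, -0.44 for Cacna1c to Ryr2 and 0.13 for Sln to Atp2a2. The exact permutation p was 0.0238 for each (adjusted 0.0333 over the 7 ratios) except Jph2 to Ryr2 and Sln to Atp2a2. Those were at 0.0476 (adjusted 0.0556) and 0.0952 (adjusted 0.0952), and their Firre libraries overlapped the controls. The pooled test takes both control groups as alike. For Pln to Atp2a2, Casq2 to Ryr2 and Trdn to Ryr2, the blank control lay above the negative control without overlap. For these the pooled p does not compare Firre with the control vector alone. Firre differed from the negative control alone by -0.06 on the log2 scale for Casq2 to Ryr2. In that comparison, 3 against 3 libraries cannot go below 0.10.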
